A study of Homo sapiens with 36 samples.

Results

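Medroxyprogesterone acetate (MPA), a synthetic progestin, was given on its own to ZR-75-1 cells, and its arrays were compared with those of vehicle-treated cells. Both groups were chosen by their labels and hold 4 arrays each, which makes 8 of the 36 arrays measured. ZR-75-1 is an established estrogen receptor-positive luminal breast cancer line, used here at passage 16. Every group was kept in phenol red-free medium with 10% serum stripped of steroids by charcoal before hormone was added. MPA cells received 10 nM MPA for 16 h and vehicle cells received the solvent, ethanol, with no estradiol in either group. MPA was also set beside 10 nM progesterone (P4) for 16 h and 10 nM 5α-dihydrotestosterone (DHT) for 16 h. A further pair held 10 nM estradiol (E2) for 16 h in both groups, with 10 nM MPA added in the E2+MPA group and none in the E2 group, and these groups also had 4 arrays each. RNA was measured on Illumina HumanWG-6 v3 arrays, in a single line at 1 dose and 1 time. The labels do not say that replicates came from separate cultures, so p-values measure the spread between these samples, which may be technical.

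Progestins act through the progesterone receptor, a transcription factor that binds DNA once it holds its ligand. MPA also binds the androgen and glucocorticoid receptors, and these receptors share a DNA recognition motif, so that genes such as FKBP5 can answer to several of them. UGT2B enzymes, which appear among the genes described here, attach glucuronic acid to androgens and other steroids and are known to be under androgen control in breast and prostate cells.

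Levels are log2 normalised signals. A probe was called detected on an array where its detection p was under 0.01, and a gene passed the test where its limma p, adjusted by Benjamini-Hochberg over 9902 genes, was under 0.05. On the 8 arrays 26.2% to 29.1% of probes were detected. The 12 luminal markers were detected in both groups. Of the markers of other cell types, 2 of 6 basal, 2 of 9 fibroblast and 1 of 7 endothelial genes on the array were detected with both MPA and vehicle, 2 of 9 leukocyte genes with MPA and 3 with vehicle, and 1 of 6 adipocyte genes with MPA and 2 with vehicle. Defining genes such as PTPRC, PECAM1, DCN, KRT5 and ADIPOQ were not detected, and no gene of these lists passed the test. The MPA arrays correlated with each other at 0.972 to 0.992 and the vehicle arrays at 0.872 to 0.983, and vehicle replicate 1 stood furthest from the rest (0.838 to 0.938 with the other 7). On the first principal component of all 36 arrays, which held 47.7% of the variance, the MPA arrays lay between -29.7 and -12.8, and the vehicle arrays at 78.0, -16.2, 1.72 and 35.7. Most of the spread was therefore on the vehicle side. Across genes the difference between the groups correlated with this component at -0.89 (9902 genes, which are not independent replicates). The groups' own arrays are part of the component. With the main within-group component of the 28 arrays of other groups the correlation was -0.81. Counted in sets of 6 by deposited order, MPA replicates 1 to 4 were in sets 5, 5, 2 and 6. Vehicle replicates 1 to 4 were in sets 1, 1, 5 and 3. No label names these sets as a batch. All arrays of sets 3 and 4 lay between 17.0 and 58.4 on the first component. Only set 5 held both groups, so group and set are largely confounded.

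Of the 9902 genes tested, 194 (1.96%) differed between the groups, of which 80 were higher (0.808%) and 114 lower (1.15%) with MPA than with vehicle. Without adjustment 2802 genes (28.3%) had a p under 0.05. The arrays of the groups did not overlap for 180 of the 194, against 1089 of all genes (11%; 4.34% were higher and 6.66% lower with MPA). The median change was 1.16 among the genes that were higher and -0.77 among those that were lower, on the log2 scale, while the median over all genes tested was -0.12. Outside these 8 arrays, E2 replicate 2 and a replicate 2 array of cells pretreated with E2 and given P4 are in doubt. Each was judged to resemble the other's group, and both enter the shared estimate of the spread. FKBP5 lay at 11.51 on E2 replicate 2 and between 9.52 and 10.04 on the other E2 arrays. On the first component E2 replicate 2 lay at 41.6 (other E2 arrays 25.9, 21.9 and -33.8). The pretreated array lay at -26.1 (others of its group -25.0, -14.1 and 31.5). No measure of whole-array closeness is given here. Without these 2 arrays, 233 genes passed (109 higher and 124 lower), 188 of them among the 194. The number of calls moved with single vehicle arrays. Without vehicle replicate 1 it was 67 (47 higher and 20 lower), and without vehicle replicate 2, the vehicle array nearest to the MPA arrays, it was 1807. Leaving out MPA replicate 1 gave 55 higher and 61 lower genes, and leaving out MPA replicates 3 and 4 gave 98 and 120 calls. A set of 55 genes passed with each of the 8 arrays left out in turn, and in this set 37 were higher and 18 lower. The lower genes depended most on the choice of arrays: 46 of the 80 higher genes but 19 of the 114 lower genes still passed without vehicle replicate 1. With the array's position on the main within-group component of the other 28 arrays as a covariate, 147 genes passed (108 higher), and 96 of them were among the 194. With cyclic loess in place of quantile normalisation 192 passed, of which 110 were higher and 82 lower.

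**Figure D1:**
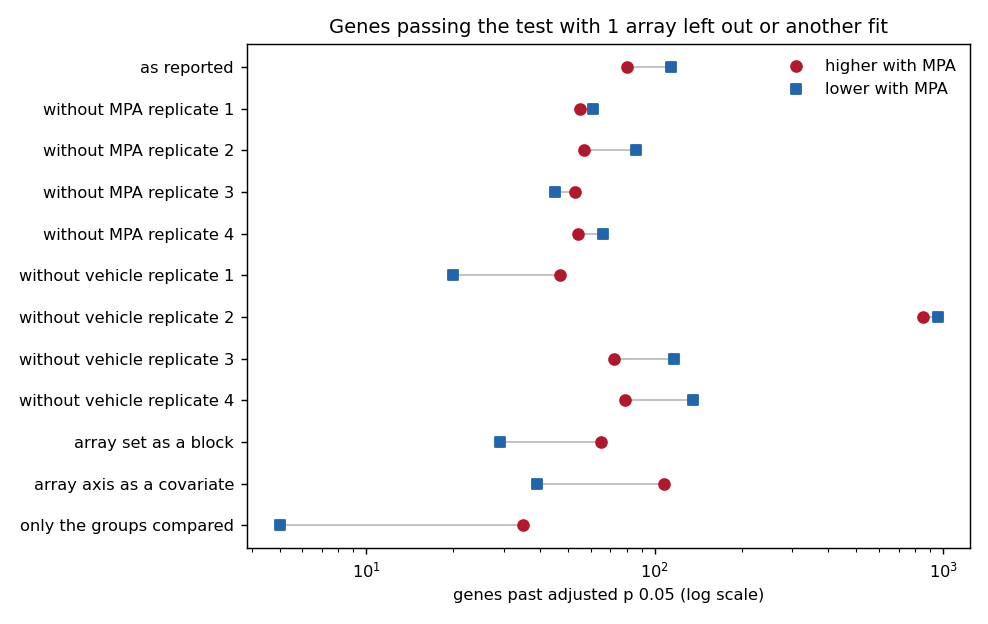
Number of genes past adjusted p 0.05 in MPA against vehicle (x axis, log scale), higher (circles) and lower (squares) with MPA, as reported and with 1 array left out or another fit (y axis). The count was 67 without vehicle replicate 1 and 1807 without vehicle replicate 2, against 194 with all arrays.

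UGT2B28, UGT2B11 and UGT2B7 had the lowest adjusted p-values of all genes with MPA. The gene lists here and below were chosen with earlier results of these data known, so their counts are descriptions only. Over all genes tested, 0.808% were called higher and 1.15% lower. Of 7 genes of glucuronidation and steroid conjugation measured, 4 were higher with MPA (UGT2B11, UGT2B28, UGT2B7 and UGT2B10), none was lower and 3 did not pass. The median change of the 7 was 1.38. It was 1.48 with genes undetected in 1 group set at their bound and UGT2B10, undetected in both, left out. UGT2B11 lay at 9.71, 9.62, 9.47 and 9.04 on the MPA arrays and at 5.90, 5.74, 5.40 and 6.10 on the vehicle arrays. It was detected on all 4 MPA arrays and no vehicle array, and was at least 5.31-fold higher with MPA (adjusted p = 2.64e-15), a bound set against the lowest signal detected on each vehicle array. UGT2B28 lay at 8.73, 8.56, 8.50 and 8.73 with MPA and at 5.47, 5.36, 5.41 and 5.62 with vehicle, was also detected in the MPA group alone, and was at least 2.98-fold higher (adjusted p = 1.76e-15). UGT2B7, the enzyme of this family known for conjugating morphine as well as steroids, lay at 10.07, 9.83, 9.79 and 9.56 with MPA and at 8.06, 6.30, 6.05 and 6.73 with vehicle. It was higher with MPA (adjusted p = 1.45e-09), but was detected on 1 vehicle array alone, replicate 1, so no size is given. UGT2B10 passed the test but was detected on no array of either group, so no fold is given. The genes of this family are related in sequence, and how far each probe reads only its own gene was not tested.

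UGT2B11, UGT2B7 and UGT2B10 had a RefSeq promoter window (300 bases around the start site, GRCh38.p14), all on chromosome 4, and these are shown because the family held the largest changes. UGT2B11 is on the minus strand at chr4:69214699-69214998, and UGT2B7 and UGT2B10 are on the plus strand at chr4:69096224-69096523 and chr4:68815744-68816043. Capitals mark the longest stretch the 3 windows share, ATAAACATAAAAG, which begins at -182, -176 and -178 from the start sites of UGT2B11, UGT2B7 and UGT2B10.
UGT2B11: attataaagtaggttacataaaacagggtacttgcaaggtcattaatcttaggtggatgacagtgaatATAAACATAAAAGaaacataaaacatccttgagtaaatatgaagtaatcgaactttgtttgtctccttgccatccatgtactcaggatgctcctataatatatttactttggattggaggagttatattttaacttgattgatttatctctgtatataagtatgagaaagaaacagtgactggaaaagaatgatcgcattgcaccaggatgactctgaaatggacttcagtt
UGT2B7: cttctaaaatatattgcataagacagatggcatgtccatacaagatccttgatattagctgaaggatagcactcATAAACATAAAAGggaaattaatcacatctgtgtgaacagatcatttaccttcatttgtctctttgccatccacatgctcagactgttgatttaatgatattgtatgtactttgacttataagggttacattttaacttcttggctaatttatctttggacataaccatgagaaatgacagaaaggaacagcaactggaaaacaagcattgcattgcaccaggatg
UGT2B10: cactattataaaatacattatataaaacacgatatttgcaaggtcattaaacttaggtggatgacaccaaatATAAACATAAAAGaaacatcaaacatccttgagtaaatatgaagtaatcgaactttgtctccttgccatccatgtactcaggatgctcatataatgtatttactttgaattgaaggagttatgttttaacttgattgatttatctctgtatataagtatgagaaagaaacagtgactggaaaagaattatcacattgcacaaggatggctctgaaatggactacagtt
UGT2B11 and UGT2B10 were identical at 91.3% of aligned window bases, UGT2B11 and UGT2B7 at 67.3%, and UGT2B7 and UGT2B10 at 66.3%.

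Genes known to be induced by androgens were the list with the most calls. Of 21 measured, 10 were higher with MPA and none lower, with a median change of 0.84 against -0.12 over all genes tested, or 0.64 with genes undetected in 1 group set at their bound. Without vehicle replicate 1, 9 of them passed. UGT2B11, UGT2B28 and UGT2B7 are among these 10 and were already counted in the glucuronidation list, so the 2 lists are not separate. FKBP5, the immunophilin that binds the chaperone complex of steroid receptors, lay at 11.11, 11.28, 11.46 and 11.17 with MPA and at 9.72, 9.53, 9.49 and 9.54 with vehicle. Every MPA array was above every vehicle array, and the difference was 1.68 ± 0.32 (log2, SE, n = 4 each, adjusted p = 0.00249). CLDN8, a tight junction claudin, lay at 10.21, 10.10, 9.93 and 9.80 with MPA and at 8.84, 8.15, 8.13 and 8.54 with vehicle, a difference of 1.60 ± 0.18 (adjusted p = 7.02e-07). EAF2, which associates with the ELL elongation factors, rose by 1.45 ± 0.25 (adjusted p = 9.52e-04), and ELL2, one of those factors, rose by 1.21 ± 0.23 (adjusted p = 0.0028). STEAP2, a metalloreductase of the prostate, lay at 7.13, 7.84, 7.43 and 7.37 with MPA and at 5.43, 5.45, 5.60 and 5.32 with vehicle. It was detected on no vehicle array and was at least 1.31-fold higher (adjusted p = 4.25e-07), and STEAP1 was at least 1.56-fold higher (adjusted p = 4.37e-06, detected on 3 MPA arrays and no vehicle array).

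The promoter window of FKBP5 (chr6:35728534-35728833, minus strand, GRCh38.p14) is printed because FKBP5 is shared by the lists of progestin-, androgen- and glucocorticoid-induced genes. Capitals mark the hexamer AGAACA, an arm of the inverted repeat that these receptors share, which starts at the first transcribed base.
FKBP5: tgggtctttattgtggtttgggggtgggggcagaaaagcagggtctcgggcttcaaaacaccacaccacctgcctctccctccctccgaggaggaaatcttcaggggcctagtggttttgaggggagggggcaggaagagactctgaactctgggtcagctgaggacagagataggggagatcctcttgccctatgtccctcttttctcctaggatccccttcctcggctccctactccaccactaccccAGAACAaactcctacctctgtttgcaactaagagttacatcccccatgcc
Windows were searched on both strands for this hexamer, for the core ACANNNTGT and for the full inverted repeat of the hexamer around 3 free bases, which contains the other two. The hexamer was in 14.9% of 87 windows of genes higher with MPA, 11% of 163 windows of genes lower with MPA, 9.38% of windows of all genes tested and 14.8% of all 35116 windows. The core was in 4.6%, 4.91%, 3.13% and 5.37% of the same sets. The full repeat was in none of the windows of the 194 genes and in 0.00285% of all windows. Of the 194 genes, 57 of the 80 higher and 92 of the 114 lower had a window.

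**Figure D2:**
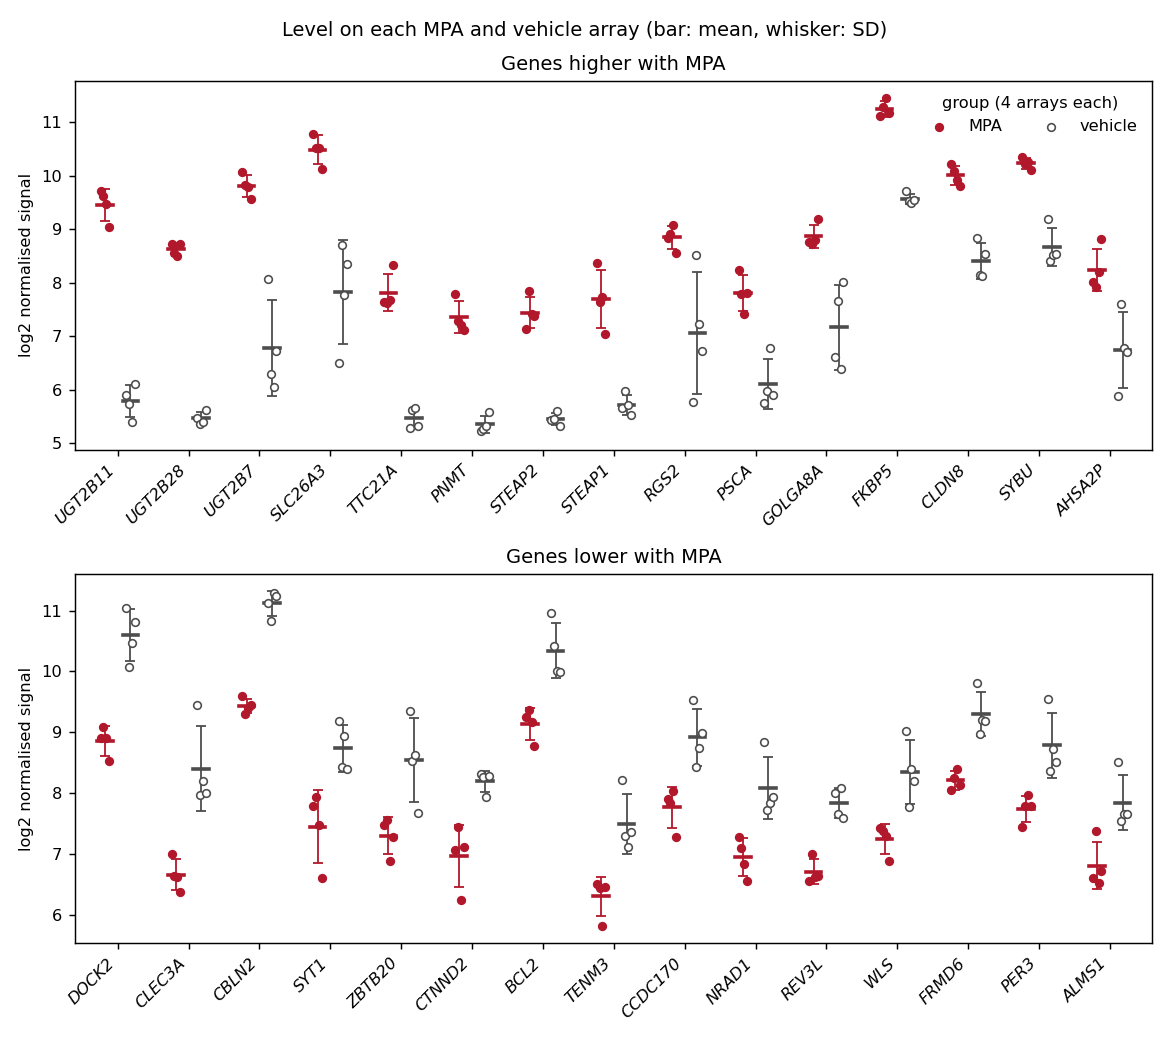
Log2 normalised signal (y axis) on each MPA array (filled) and vehicle array (open) for the 15 genes with the largest rise and the 15 with the largest fall among genes that passed the test and whose groups did not overlap; bars are means and whiskers SD over 4 arrays. UGT2B11 lay between 9.04 and 9.71 with MPA and between 5.40 and 6.10 with vehicle.

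Of 22 progestin-induced genes measured, 4 were higher with MPA (FKBP5, HSD11B2, S100P and BCL6) and none lower, against 0.808% higher and 1.15% lower of all genes tested. The median change was 0.27, or 0.11 with genes undetected in 1 group at their bound and STAT5A, undetected in both, left out. Without vehicle replicate 1, 2 of the 22 passed. BCL6, a transcriptional repressor, lay at 11.87, 11.93, 11.91 and 11.90 with MPA and at 11.38, 11.35, 11.05 and 10.99 with vehicle. The MPA arrays were nearly equal and all above the vehicle arrays, and the difference was 0.71 ± 0.13 (adjusted p = 0.00164). HSD11B2, which inactivates cortisol, lay at 10.06, 9.81, 9.91 and 10.21 with MPA and at 8.99, 8.48, 8.55 and 8.90 with vehicle, a difference of 1.27 ± 0.33 (adjusted p = 0.0394). This call was lost in 7 of the 8 fits with 1 array left out (adjusted p 0.0506 to 0.104) and held without vehicle replicate 2 (adjusted p = 0.0322), while without the 2 arrays in doubt the adjusted p was 2.25e-07.

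Glucocorticoid-induced genes had 1 call among 19 measured, FKBP5, against calls in 1.96% of all genes tested, and a median of 0.27. TSC22D3, also called GILZ, lay at 12.73, 12.65, 12.46 and 12.53 with MPA and at 12.87, 12.06, 12.61 and 12.48 with vehicle, so that the groups overlapped. Its difference was 0.09 ± 0.22 (adjusted p = 0.794), with a 95% interval of -0.37 to 0.54, and the sign turned to -0.06 without vehicle replicate 2. SGK1, a kinase that regulates sodium transport, lay between 6.94 and 7.32 with MPA and between 6.03 and 6.44 with vehicle, did not pass (adjusted p = 0.074), and was detected on 3 MPA arrays and no vehicle array. It passed in 7 of 21 alternatives, among them without the 2 arrays in doubt (adjusted p = 0.0131) and with the array axis as a covariate (adjusted p = 0.0056). SERPINA3, an acute phase protease inhibitor, lay at 9.46, 9.20, 9.28 and 8.91 with MPA and at 8.61, 7.17, 6.98 and 6.96 with vehicle and did not pass (1.78 ± 0.53, adjusted p = 0.0755). It passed in 5 of 21 alternatives, among them without the 2 arrays in doubt (adjusted p = 1.07e-05) and with the axis (adjusted p = 0.00705).

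The receptors themselves gave no call. PGR, the progesterone receptor, was detected on no MPA and no vehicle array. ESR1, estrogen receptor alpha, lay between 10.36 and 10.61 with MPA and between 9.82 and 11.13 with vehicle, where replicate 1 was the low array, and differed by -0.25 ± 0.23 (adjusted p = 0.443). NR3C1, the glucocorticoid receptor, was detected on 1 MPA and 3 vehicle arrays and did not pass (adjusted p = 0.335). Among 11 steroid-converting enzymes, HSD11B2 and HSD17B2 were higher and none was lower, against 0.808% higher and 1.15% lower of all genes tested. The median of the 11 was 0.58. HSD17B2, which oxidises estradiol and testosterone, lay at 8.69, 8.73, 8.58 and 8.53 with MPA and at 6.97, 7.27, 7.45 and 7.85 with vehicle, a difference of 1.25 ± 0.23 (adjusted p = 0.00187) that passed in every leave-one-out fit.

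A few secretory and transport genes were higher. Of 17 apocrine and secretory products measured, PSCA, SCGB1D2, S100P and AZGP1 were higher with MPA and none was lower. Over all genes tested 0.808% were higher and 1.15% lower. The median of the 17 was 0.63, and without vehicle replicate 1 only PSCA passed. PSCA, a surface antigen of prostate epithelium, lay at 8.24, 7.78, 7.42 and 7.82 with MPA and at 5.75, 5.97, 6.78 and 5.91 with vehicle, was detected on no vehicle array, and was at least 1.70-fold higher (adjusted p = 6.13e-05). SCGB1D2, a secretoglobin, lay at 14.23, 14.08, 13.77 and 14.02 with MPA and at 12.48, 12.81, 13.03 and 13.11 with vehicle, a difference of 1.17 ± 0.26 (adjusted p = 0.0107, or 0.0724 without vehicle replicate 1 and 5.11e-05 without the 2 arrays in doubt). Of 18 ion and solute transporters, SLC26A3, ABCC8 and AQP3 were higher and none lower, against the same shares of all genes tested, with a median of 0.04. SLC26A3, a chloride-bicarbonate exchanger, lay at 10.78, 10.52, 10.52 and 10.13 with MPA and at 6.49, 8.71, 7.78 and 8.36 with vehicle. Its vehicle arrays were far apart but all below the MPA arrays, and the difference was 2.65 ± 0.29 (adjusted p = 4.51e-07). ABCC8, a regulatory subunit of potassium channels, and AQP3, a water and glycerol channel, were detected on no vehicle array and were at least 1.42-fold and at least 1.18-fold higher (adjusted p = 9.52e-04 and 0.00513).

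Single genes outside these groups rose as well. SOCS2, a feedback inhibitor of cytokine and growth hormone signalling, lay at 10.39, 10.56, 10.40 and 10.24 with MPA and at 8.70, 9.31, 9.22 and 9.32 with vehicle, a difference of 1.26 ± 0.21 (adjusted p = 8.01e-04). THRSP, which promotes lipid synthesis, was the 1 call among 22 genes of fatty acid and triglyceride synthesis and rose by 1.38 ± 0.22 (adjusted p = 2.26e-04). ZNF689, a zinc finger protein, rose by 1.22 ± 0.12 (adjusted p = 1.21e-07), and UROD, an enzyme of heme synthesis, by 1.06 ± 0.12 (adjusted p = 4.51e-07). ZNF689, UROD and SOCS2 were named after their values were seen, as members of the set that passed in every leave-one-out fit.

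The genes that were lower included DOCK2, CBLN2 and CLEC3A. DOCK2, a guanine nucleotide exchange factor known from leukocytes, lay at 8.91, 9.09, 8.90 and 8.52 with MPA and at 11.05, 10.07, 10.47 and 10.81 with vehicle. All vehicle arrays were above all MPA arrays, and the difference was -1.74 ± 0.21 (adjusted p = 2.5e-06). Of the leukocyte markers, PTPRC, CD3D, CD3E, ITGAM, LAPTM5 and LYZ were not detected in either group. CD68 was detected on 4 MPA and 3 vehicle arrays, CORO1A on 4 of each, and CD14 with vehicle alone. CBLN2, a secreted organiser of synapses, lay at 9.59, 9.31, 9.40 and 9.44 with MPA and at 11.12, 10.83, 11.28 and 11.24 with vehicle, a difference of -1.68 ± 0.25 (adjusted p = 9.65e-05). CLEC3A, a C-type lectin of cartilage, lay at 7.01, 6.64, 6.62 and 6.38 with MPA and at 9.44, 7.96, 8.20 and 8.01 with vehicle, and was lower with MPA (adjusted p = 0.00164). It was detected on 1 MPA array alone, so no size is given.

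Of 19 synaptic and neuronal genes, 3 were lower (CBLN2, SYT1 and CTNND2) and 2 higher (PNMT and CNTNAP2), with a median of -0.08. Over all genes tested 1.15% were lower and 0.808% higher. SYT1, the calcium sensor of vesicle release, lay at 7.79, 7.94, 7.47 and 6.60 with MPA and at 9.18, 8.44, 8.94 and 8.39 with vehicle, a difference of -1.29 ± 0.23 (adjusted p = 0.00127). PNMT, the enzyme that makes adrenaline, was detected on 3 MPA arrays and no vehicle array, and was at least 1.24-fold higher (adjusted p = 0.0207, or 0.0841, 0.0731 and 0.0519 without vehicle replicate 1, MPA replicate 1 and MPA replicate 3). Without the 2 arrays in doubt its adjusted p was 1.43e-07.

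BCL2, which restrains apoptosis, was the 1 call among 12 members of its family. It lay at 9.25, 9.36, 9.18 and 8.77 with MPA and at 10.95, 10.42, 10.01 and 9.99 with vehicle, a difference of -1.20 ± 0.26 (adjusted p = 0.0105), and did not pass without vehicle replicate 1 or MPA replicate 4 (adjusted p = 0.0861 and 0.0511), while without the 2 arrays in doubt the adjusted p was 6.37e-04. A second BCL2 probe differed by -0.63. Estrogen-induced genes had 1 call among 32, GREB1, and a median of -0.13. The median was -0.03 with genes at their bound and the 2 undetected in both groups, PGR and PDZK1, left out. GREB1, an estrogen receptor cofactor, lay at 7.93, 7.76, 7.31 and 8.24 with MPA and at 7.05, 6.48, 6.84 and 6.10 with vehicle, and was higher with MPA (adjusted p = 0.0163), with detection on 1 vehicle array. It was no longer called without vehicle replicate 4, MPA replicate 1 or MPA replicate 4 (adjusted p = 0.0598, 0.0534 and 0.0731), while without the 2 arrays in doubt the adjusted p was 0.00233. TFF1, MYC and CCND1, familiar estrogen targets, did not pass (adjusted p = 0.332, 0.152 and 0.232).

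Cell cycle lists gave no call. Of 34 DNA replication genes and 32 mitosis genes, none passed, with medians of -0.25 and -0.16. MKI67, a proliferation antigen, lay at 7.41, 7.24, 6.95 and 8.0 with MPA and at 8.70, 7.83, 8.18 and 8.27 with vehicle, so that 1 MPA array overlapped the vehicle range (-0.84 ± 0.25, adjusted p = 0.0732). Without vehicle replicate 2, 10 of the 34 replication genes (3 higher and 7 lower) and 10 of the 32 mitosis genes (5 higher and 5 lower) passed. In that fit 1807 of all 9902 genes passed, 851 higher and 956 lower.

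**Figure D3:**
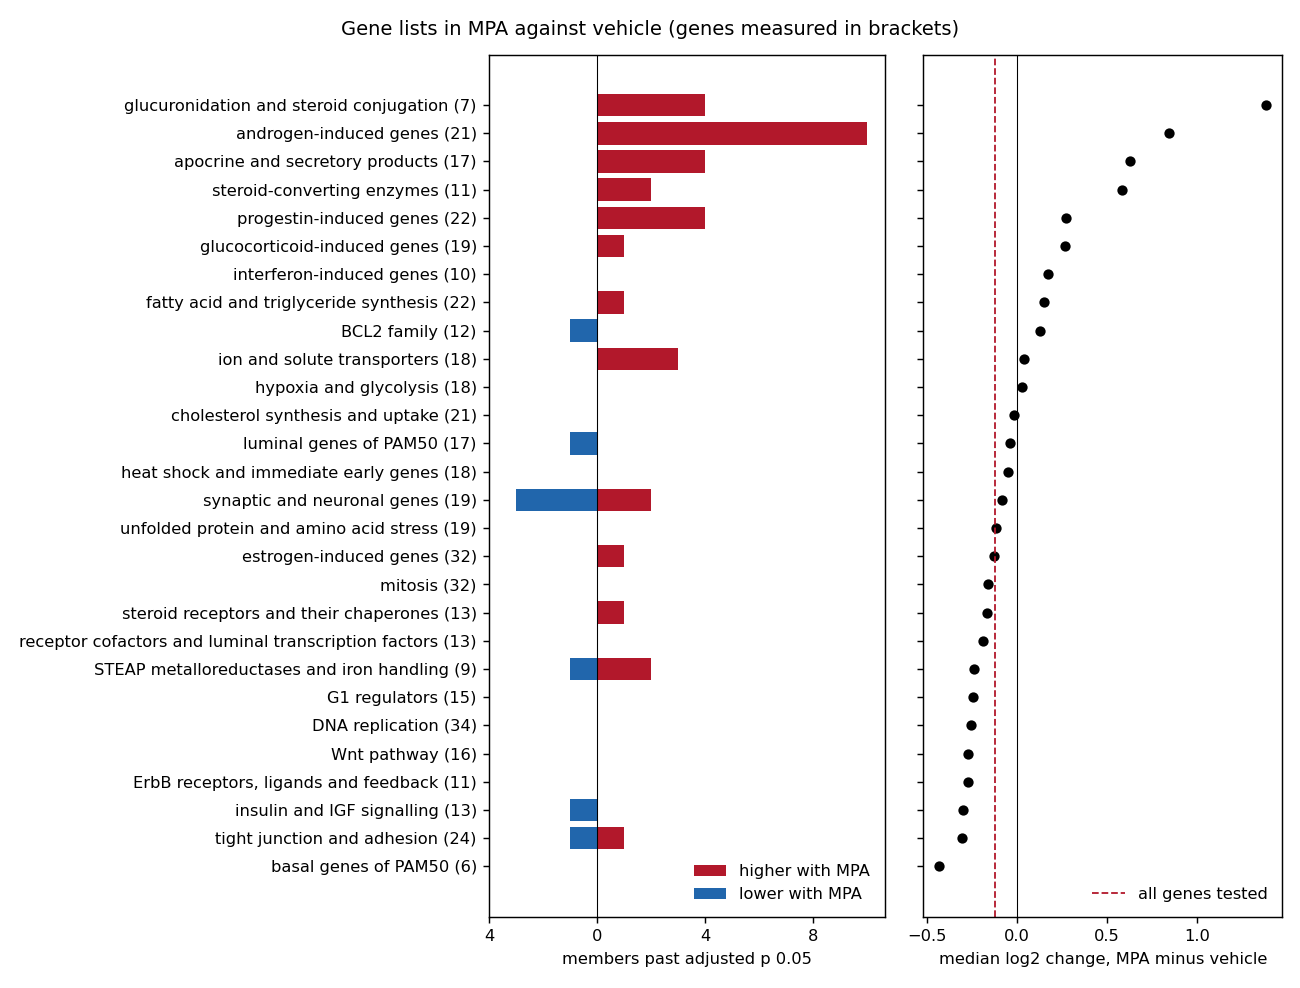
Members of the gene lists shown past adjusted p 0.05 in MPA against vehicle (left, number of genes, higher to the right and lower to the left of 0) and the median log2 change of all measured members (right, dashed line at the median of all genes tested, -0.12). Glucuronidation genes had 4 of 7 and androgen-induced genes 10 of 21 members higher with MPA, and UGT2B11, UGT2B28 and UGT2B7 count in both.

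Progesterone, which lacks the methyl group and the acetate ester of MPA, gave lower levels of UGT2B11, SLC26A3 and FKBP5 at the same dose and time. Against P4, 37 genes passed (0.374%, with 2.83% at an unadjusted p under 0.05), 35 of them higher (0.353%) and 2 lower (0.0202%) with MPA, and the P4 arrays lay between -28.3 and -19.8 on the first component, inside the MPA range. UGT2B11 averaged 9.46 ± 0.30 with MPA, 6.48 ± 0.56 with P4 and 5.79 ± 0.30 with vehicle (SD, n = 4 each), and it was higher with MPA than with P4 (adjusted p = 9.14e-13), but was detected on 1 P4 array alone, so no size is given. SLC26A3 averaged 10.49 ± 0.27 with MPA, 8.83 ± 0.23 with P4 and 7.84 ± 0.97 with vehicle (MPA minus P4 1.66, 95% interval 1.06 to 2.25, adjusted p = 0.00161). FKBP5 averaged 11.25 ± 0.15 with MPA, 9.74 ± 0.10 with P4 and 9.57 ± 0.10 with vehicle (MPA minus P4 1.51, interval 0.86 to 2.16, adjusted p = 0.0169). CBLN2 and DOCK2 were the 2 genes lower with MPA than with P4, by -1.31 and -1.23 (adjusted p = 0.0044 and 0.00124). No difference from P4 passed for SCGB1D2, at 0.15 (interval -0.38 to 0.67), or for SERPINA3, at 0.39 (interval -0.70 to 1.48). Of the 80 genes higher with MPA than with vehicle, 32 were also higher than with P4, but both comparisons use the same MPA arrays.

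DHT, an androgen of another structure, gave higher levels of the UGT2B genes than MPA did. Against DHT, 30 genes passed (0.303%), of which 4 were higher (0.0404%) and 26 lower (0.263%) with MPA. UGT2B11 averaged 12.05 ± 0.10 with DHT, and MPA differed from DHT by -2.59 (interval -2.97 to -2.21, adjusted p = 2.81e-11). UGT2B28 and UGT2B7 differed from DHT by -2.76 and -2.64, CLDN8 by -1.12 (adjusted p = 6.33e-04) and AQP3 by -1.30 (adjusted p = 0.011). FKBP5 differed by -0.18 (interval -0.84 to 0.47), SLC26A3 by -0.13 (interval -0.73 to 0.46) and CBLN2 by -0.06 (interval -0.57 to 0.44), and none of these passed. The 4 genes higher with MPA than with DHT were PSCA, ABCC8, SSTR2 and DOCK2. PSCA and ABCC8 were detected on no DHT array and were at least 1.57-fold and at least 1.31-fold higher with MPA (adjusted p = 8.6e-05 and 0.0284). SSTR2, a somatostatin receptor, differed by 1.07 (adjusted p = 0.0116), and DOCK2 averaged 8.86 ± 0.24 with MPA, 7.66 ± 0.13 with DHT and 10.60 ± 0.42 with vehicle, so MPA was above DHT by 1.20 (adjusted p = 0.00235). VWF, detected in the DHT group alone of these, was at least 2.33-fold lower with MPA (adjusted p = 8.59e-06). On the first component 3 of the 4 DHT arrays lay between 28.3 and 29.8 and replicate 3 at -32.9, so the DHT arrays were spread more than those of MPA. By deposited order DHT replicates 1, 2 and 4 were in sets 4, 4 and 3, and replicate 3 was in set 6. The 30 calls became 47 without DHT replicate 3, 17 without DHT replicate 1 or MPA replicate 4, and 19 without DHT replicate 2.

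**Figure D4:**
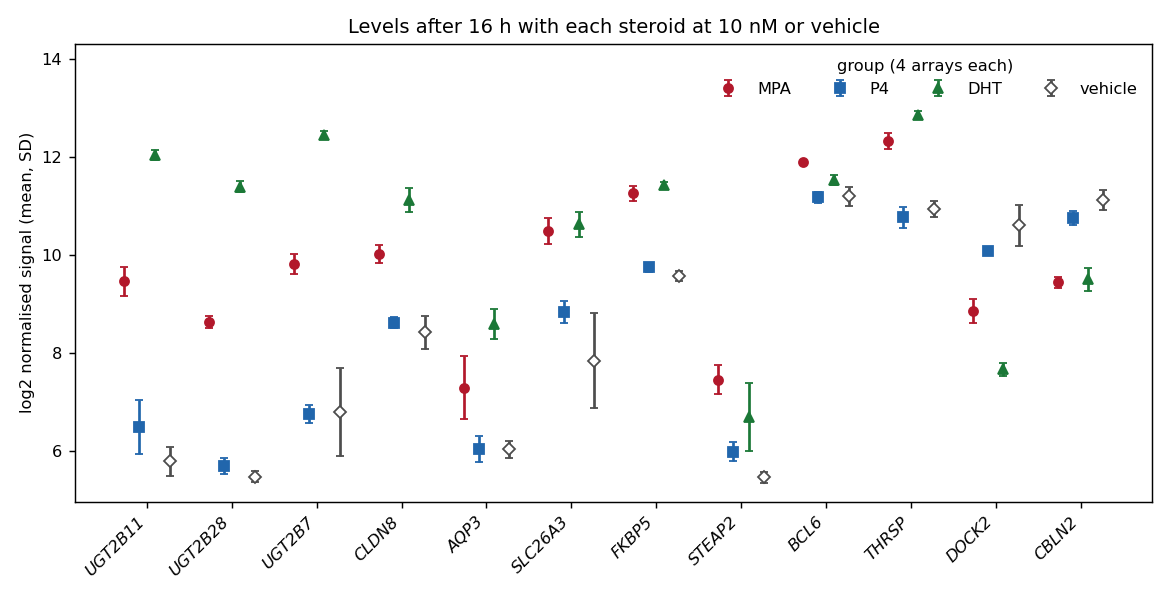
Mean log2 normalised signal and SD (y axis) over 4 arrays each for MPA, P4, DHT and vehicle, for 12 genes (x axis). UGT2B11 was 9.46 with MPA, 6.48 with P4, 12.05 with DHT and 5.79 with vehicle.

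The effect of MPA was then read in cells that also received E2, on arrays that neither the MPA nor the vehicle group holds. In E2+MPA against E2, 88 genes passed (0.889%), with 56 higher (0.566%) and 32 lower (0.323%). This count was 349 and 238 without E2+MPA replicates 1 and 2, 55 and 39 without E2+MPA replicates 3 and 4, and 51 and 48 without E2 replicates 1 and 3. The direction without E2 was the same in 76 of the 80 genes higher with MPA alone (95%) and in 101 of the 114 lower (88.6%), against 55.2% of all genes tested, and 32 and 6 of them passed with E2. Of the 55 genes that passed in every leave-one-out fit, 37 of 37 higher and 17 of 18 lower kept the direction, and 27 and 3 passed with E2. Without the 2 arrays in doubt 75 of the 80 and 102 of the 114 had the same direction, against 48.2% of all genes, with 39 and 10 passing.

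UGT2B11 lay between 8.78 and 9.20 with E2+MPA and between 5.64 and 5.88 with E2, where it was detected on no array (adjusted p = 3.75e-13). STEAP2 lay between 7.47 and 7.77 with E2+MPA and between 5.14 and 5.68 with E2 (adjusted p = 2.24e-08). DOCK2 and CBLN2 differed by -1.26 and -1.28 (adjusted p = 8e-04 and 0.00475). SLC26A3 differed by 1.25 with E2 present (adjusted p = 0.0259), a call lost without these 2 arrays (adjusted p = 0.0805), and PSCA was detected on no E2+MPA array. A test of the difference between the effect of MPA with E2 and its effect alone gave no gene by limma (lowest adjusted p 0.100), with 1449 genes at an unadjusted p under 0.05 (14.6%). Without the 2 arrays in doubt the same test gave TUBA3E (positive, adjusted p = 1.53e-04) and ODAD3 (negative, adjusted p = 0.00248). Both were named after their values were seen. TUBA3E was detected on 2 MPA, no vehicle, 4 E2+MPA and 2 E2 arrays. ODAD3 was detected on no MPA, no vehicle, 1 E2+MPA and 3 E2 arrays. No size is given for either, as many of these signals were below detection.

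**Figure D5:**
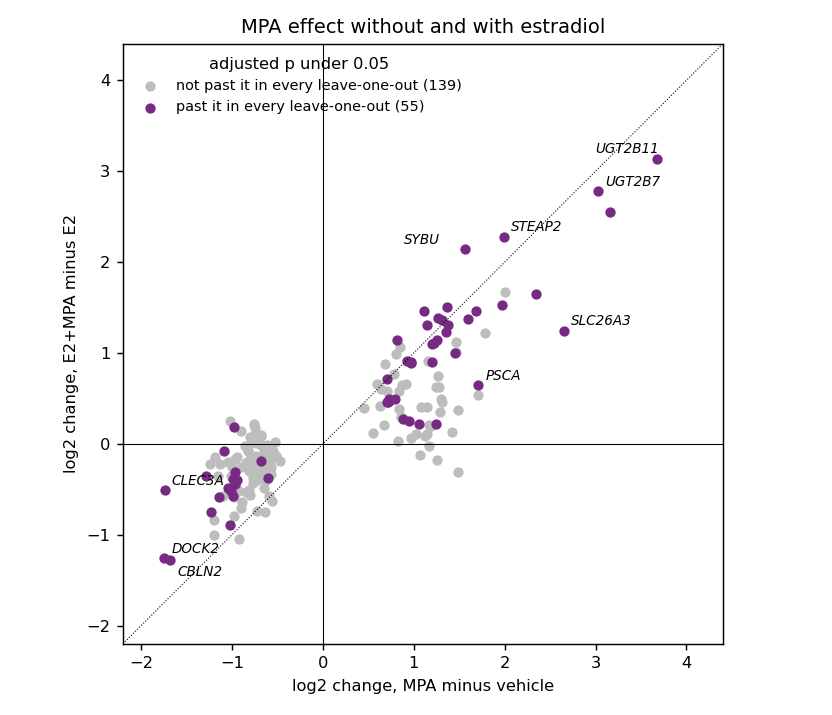
Log2 change with MPA alone (x axis, MPA minus vehicle) against the change with MPA in the presence of E2 (y axis, E2+MPA minus E2) for the 194 genes that passed in MPA against vehicle, as fitted. Purple marks the 55 that passed in every leave-one-out fit, of which 54 kept the direction, and the dotted line marks equal change.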

How the data were processed

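RNA of 36 samples was read as probe intensity, 1 array each (Illumina HumanWG-6 v3). The authors deposited linear intensities exported from BeadStudio without background subtraction, and a detection p-value per probe and array, deposited as 1 minus p. A second deposited table held intensities that were a straight-line change of the first on each array, and was used as an alternative. The authors' own variance stabilisation and ComBat correction are not in these values and were not repeated. Signals were background corrected and quantile normalised with neqc (offset 16) in limma 3.58.1 (R 4.3.3). Of 48803 probes, 27578 had 1 gene symbol, 13 several and 21212 none, from the platform annotation. Probes detected (p below 0.01) on 4 or more arrays were kept (15112), and the brightest probe stood for each of 9902 genes. Linear models were fitted to all 36 arrays with 1 term per group, so that the spread was shared, and contrasts were tested with eBayes and Benjamini-Hochberg adjustment at 0.05. Precision was limited by the 4 arrays per group, and a 95% interval reached 0.40 to either side in the median gene on the log2 scale.

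A gene undetected on every array of 1 group was given as a bound, from the higher of its own value and the lowest detected signal on each of those arrays. The genes named were the 15 called genes that rose most and the 15 that fell most with no overlap between groups, a panel of hormone-responsive genes, up to 5 called members of each list and the 5 largest called changes in each direction against P4, against DHT and in the difference with E2. The 55 called genes that passed in every leave-one-out fit were named as well. The genes of the panel, the lists and the comparison itself were chosen with earlier results of these data known. On simulated data of 9902 genes, 76% of genes changed by 1 and 100% of those changed by 2 (log2, either direction) were recovered for MPA against vehicle. In the same data 12 unchanged genes were called. The simulated noise was independent between genes and arrays, with no shared component and no outlying array. These rates therefore do not describe recovery on the real arrays. Alternatives covered background correction, normalisation, filters, probe choice, samples fitted, array weights, blocks and single arrays left out. A replicate number that the labels give was tried as a block. Promoter windows are from RefSeq. The result of 1 gene list is not reported here.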

Additional observations from a re-analysis of the deposited data

Results flagged for a closer look

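In 12 of 188 groups of 4 arrays tested (6.38%), 1 array lay far from the other 3 by Dixon's criterion, which chance meets in about 1 in 20 groups, and 6 of the 12 were on vehicle replicate 1. On that array CLEC3A was 9.442 (nearest 8.203), ALMS1 8.515 (nearest 7.658), SERPINA3 8.609 (nearest 7.170) and MYC 11.76 (nearest 11.44), each the highest of its group, and ESR1 was 9.824 (nearest 11.02) and SOCS2 8.7 (nearest 9.221), each the lowest. CTNND2 was lowest on vehicle replicate 3 at 7.932 (nearest 8.261), ABCC8 highest on vehicle replicate 4 at 6.743 (nearest 6.035) and TSC22D1 highest on vehicle replicate 2 at 13.16 (nearest 12.64). With MPA, TTC21A was highest on replicate 4 at 8.326 (nearest 7.684), GOLGA8A highest on replicate 4 at 9.186 (nearest 8.807) and TENM3 lowest on replicate 3 at 5.816 (nearest 6.436).

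Of 2291 kept probes without a single gene symbol, which entered no comparison above, 30 passed in MPA against vehicle (9 higher and 21 lower, 1.31%), against 1.54% of kept probes with 1 symbol.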

How the results depend on the processing

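MPA against vehicle had 67 to 1807 calls with 1 array left out, 40 with only the groups compared, 94 with sets of 6 arrays in deposited order as a block, 124 with detection on all 36 arrays, 1290 with array weights, and 49 without vehicle replicates 1 and 2. With cyclic loess it had 192 calls, 57.3% of them higher against 41.2% as reported, and the median over all genes was 0.00 in place of -0.12. Of the 76 named genes that passed, none changed sign and 20 passed in every alternative that tested them. Of these 20, 9 passed in all 22 and 11 in 21, as detection on all 36 arrays left them out. The 76 include 55 genes named because they passed in every leave-one-out fit, and those fits are among the alternatives. The counts for the 76 therefore do not measure how firm the calls were. Of all 194 called genes, 65 still passed without vehicle replicate 1 and 33 with only the groups compared. Of the 18 named genes that did not pass, MYC changed sign to 0.23 with the mean of its probes and VWF to 0.022 with the array axis as a covariate. TSC22D3 changed to -0.0612 without vehicle replicate 2 (-0.0612 to 0.212 over single arrays left out). MPA against P4 had 27 to 32 calls with 1 array left out, 24 with detection on all 36 arrays, 65 with only the groups compared, 192 with array weights and 73 with the axis. MPA against DHT had 17 to 47 with 1 array left out, and 9, 19 and 2981 under the first 3 of those settings and 18 with the array set. E2+MPA against E2 had 39 to 349 with 1 array left out, 43, 6 and 396 under the same 3 settings, 137 with cyclic loess, 144 with the array set, 263 with the axis, and 151 without the 2 arrays in doubt. The difference of the MPA effect with E2 and alone gave 0 to 2 with 1 array left out, 1 with cyclic loess, and 2 with array weights or without the 2 arrays in doubt. The cause of these moves was not tested. The array set, the axis, the 2 arrays in doubt and the pair of vehicle arrays were added after seeing the data.

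With the replicate number as a block the counts were 196, 40, 27, 101 and 0 for MPA against vehicle, MPA against P4, MPA against DHT, E2+MPA against E2 and the difference with E2. Deviations of same-numbered MPA and vehicle arrays from their group means correlated at 0.11, -0.32, 0.10 and 0.02. The labels do not say whether same-numbered samples shared a culture or run, and these values cannot show it.

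Of 43 called genes with another kept probe, 14 had one of opposite sign, such as SORBS2 (0.32 against -0.97), and 7 of the 194 changed sign with the mean of a gene's probes. Genes below the detection limit in a group have bounds and not sizes.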

Other observations

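The genes lower with MPA had longer genomic spans at the median. It was 32.1 kb in the 80 genes higher and 87.8 kb in the 114 lower, against 27.9 kb and 29.0 kb in all tested genes with a positive and a negative difference. In the 55 genes that passed in every leave-one-out fit the medians were 37.8 kb and 67.6 kb. These spans were looked at after the calls were seen, and no test was run on them.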
